A study of Bos taurus with 15 samples.

Results

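H19, IGF2 and 8 further imprinted genes, CDKN1C, NAP1L5, PLAGL1, PEG3, PEG10, MEST, DLK1 and GRB10, were followed in cultured bovine granulosa cells (GC), the cells that line the ovarian follicle and produce estradiol. They were found by their gene symbols and make up 10 of the 18010 distinct symbols on the Bovine Gene 1.0 ST Array, each with 1 transcript cluster (the probes that together read a transcribed locus) that carries this symbol alone. The set was not picked blindly. H19 was known as a gene that is far higher with L-lactate than with NaCl in these arrays, and IGF2, CDKN1C and NAP1L5 were likewise known from that comparison. The values of the 10 genes between L-lactate and NaCl are therefore given as a description without a test, while the comparisons with untreated cells were tested, although they share their L-lactate or NaCl arrays with it.

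GC were aspirated from follicles below 6 mm of abattoir ovaries, cryopreserved as pools, thawed and cultured for 8 days on collagen-coated wells in serum-free medium. All cultures received FSH at 20 ng/ml, R3 IGF-1 at 50 ng/ml, insulin at 10 ng/ml and androstenedione at 2 µM. 5 cultures contained 30 mM sodium L-lactate, 5 contained 30 mM NaCl as the vehicle control with the same sodium concentration, and 5 contained neither and are called untreated. The RNA of each culture was hybridized to 1 array. Values are log2 signals, so that a difference of 1 is a doubling, and they are comparable between groups for a gene but not between genes. The array sums the transcripts of both parental alleles, so imprinting itself was not measured. In such bulk RNA, fewer cells of a type and less RNA per cell cannot be told apart.

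Imprinted genes are transcribed mainly or only from the allele of a given parent, in most cases depending on a methylated control region set in the germ line. H19, a long noncoding RNA of the maternal allele, and IGF2, a growth factor of the paternal allele, lie close together and share enhancers, and the insulator protein CTCF, bound to the unmethylated maternal control region, keeps IGF2 from using them in mouse and human. In mouse, several maternally expressed members of the group restrain growth, such as CDKN1C and GRB10, and several paternally expressed ones promote it, such as IGF2, PEG3 and MEST. IGF2 signals through the IGF1 receptor and is an ovarian growth factor in cattle, where it is made in the follicle wall.

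Granulosa markers were read in the cultures, and so were stromal and theca markers. As signals are not comparable between genes, these levels do not give the share of each cell type. All 9 granulosa markers (among them FSHR, FOXL2, CYP19A1 and INHA) had group means above 4.553, the median of all values, and all 5 oocyte markers and 4 of 5 endothelial markers lay below it. Of the leukocyte markers 2 to 3 of 5 and of the theca markers 1 of 4 lay below it. The 7 stromal markers, such as DCN and COL1A1, were all above it, and their summed linear signal was 4838 to 5199 with L-lactate, 4503 to 5075 with NaCl and 5442 to 5864 in untreated cultures. The sum of the granulosa markers was 9073 to 9508, 10399 to 10886 and 9857 to 10174, respectively. The part of these shifts in the results below was not tested.

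H19 was the member with the widest range. Its log2 signal was 7.68, 8.03, 7.86, 7.99 and 7.38 in the 5 L-lactate arrays, 4.26, 5.21, 3.88, 4.16 and 4.22 in the NaCl arrays and 6.83, 7.06, 6.78, 6.83 and 6.70 in the untreated arrays. The 3 groups did not overlap, with L-lactate on top, untreated cells in the middle and NaCl at the bottom. The means were 7.79 ± 0.27, 4.35 ± 0.51 and 6.84 ± 0.13 (SD, n = 5 each). The SD in the NaCl group was larger than that of 99% of all clusters. NaCl replicate 2 stood apart from the other 4 NaCl arrays but was still 1.49 below the lowest untreated array.

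Against untreated cells, H19 fell with NaCl by 2.49 on the log2 scale (SE 0.20, 5.64-fold lower, limma adjusted p = 7.8e-07, 95% interval -2.91 to -2.07). By size this was rank 2 among the decreases of that comparison, in which 26773 clusters were tested. With L-lactate, H19 rose by 0.94 (1.93-fold, limma adjusted p = 0.0018, 95% interval 0.52 to 1.36), which was rank 130 among the increases. Between L-lactate and NaCl the difference was 3.44 (SE 0.20, 10.85-fold). Of this distance, 72.5% lay between NaCl and untreated cells. Without NaCl replicate 2 the difference between NaCl and untreated cells was -2.71. Detection calls were not analysed here, so how far the NaCl signal of H19 lies above background is not known.

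IGF2, which has 3 annotated genes between it and H19, followed the same order of groups at a smaller scale. Its log2 signal was 7.63, 7.56, 7.67, 7.76 and 7.16 with L-lactate, 6.35, 6.57, 6.20, 6.22 and 6.11 with NaCl and 7.03, 7.32, 7.26, 7.14 and 7.18 in untreated cells, with means of 7.56 ± 0.23, 6.29 ± 0.17 and 7.19 ± 0.11 (SD, n = 5 each). All NaCl arrays were below all others, whereas L-lactate replicate 5 lay within the untreated range. IGF2 fell with NaCl by 0.90 (SE 0.11, 1.86-fold lower, limma adjusted p = 3.7e-05). With L-lactate it was 0.37 above untreated cells (limma adjusted p = 0.016), which is short of the 1.5-fold change that was also asked of a call. Between L-lactate and NaCl it differed by 1.27 (2.40-fold), and 70.8% of that distance lay between NaCl and untreated cells.

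CDKN1C, a cyclin-dependent kinase inhibitor that holds cells in G1, is on the same chromosome as IGF2 and H19, with 11 annotated genes between it and IGF2. It read 5.73, 6.02, 5.81, 5.94 and 5.88 with L-lactate, 4.90, 4.84, 4.91, 4.87 and 4.51 with NaCl and 5.02, 5.35, 5.18, 4.99 and 5.03 in untreated cells. The groups did not overlap, and L-lactate was set apart from both others. The means were 5.88 ± 0.11, 4.81 ± 0.17 and 5.11 ± 0.15 (SD, n = 5 each). CDKN1C rose with L-lactate by 0.76 over untreated cells (SE 0.09, 1.70-fold, limma adjusted p = 6.2e-06). With NaCl it was 0.31 lower (limma adjusted p = 0.031), less than the 1.5-fold asked for. The difference between L-lactate and NaCl was 1.07 (2.10-fold), of which 28.5% lay between NaCl and untreated cells.

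NAP1L5, a member of the nucleosome assembly protein family that is paternally expressed, was high in the L-lactate arrays alone. It read 6.87, 6.92, 6.86, 6.92 and 6.84 with L-lactate, 5.79, 5.75, 5.70, 5.73 and 5.93 with NaCl and 5.72, 5.85, 5.58, 5.72 and 5.87 in untreated cells. The lowest L-lactate array was 0.91 above the highest NaCl array, and the NaCl and untreated arrays overlapped. Means were 6.88 ± 0.04, 5.78 ± 0.09 and 5.74 ± 0.12 (SD, n = 5 each). NAP1L5 rose with L-lactate by 1.14 over untreated cells (SE 0.06, 2.20-fold, limma adjusted p = 1.3e-09) and was 1.10 higher than with NaCl (2.14-fold). Between NaCl and untreated cells it differed by 0.04 (limma adjusted p = 0.75, 95% interval -0.08 to 0.16). The 4 genes that were higher with L-lactate than with NaCl thus differed in where the untreated cells lay, close to L-lactate for H19 and IGF2 and close to or at the NaCl level for CDKN1C and NAP1L5.

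**Figure D1:**
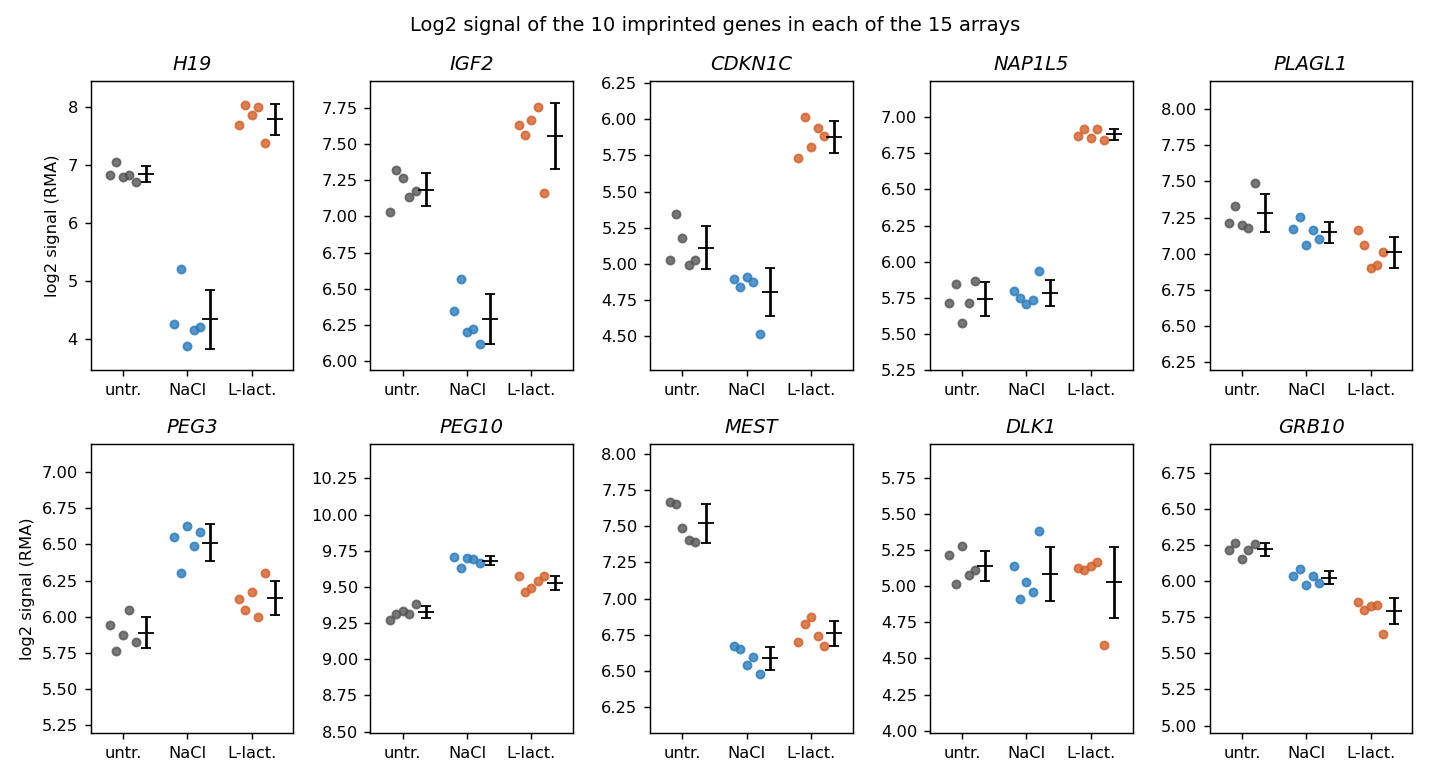
Log2 signal (vertical axis, RMA) of the 10 imprinted genes, 1 panel per gene, in the untreated, NaCl and L-lactate groups. Each point is an array, in the order of replicate numbers from left to right, the bar is the mean with the SD over 5 arrays, and the axis of H19 spans a wider range than the others. H19 and IGF2 are lowest in NaCl, NAP1L5 and CDKN1C are highest in L-lactate, and MEST is highest in untreated cells.

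MEST, a paternally expressed gene of the hydrolase fold family, was highest in untreated cells. It read 7.67, 7.66, 7.49, 7.40 and 7.39 there, against 6.67, 6.65, 6.54, 6.60 and 6.48 with NaCl and 6.70, 6.83, 6.87, 6.74 and 6.67 with L-lactate. Every untreated array was above every treated one, and the treated groups touched. MEST fell with NaCl by 0.93 (SE 0.06, 1.91-fold lower, limma adjusted p = 1.9e-07) and with L-lactate by 0.76 (1.70-fold lower, limma adjusted p = 2.7e-07). L-lactate was 0.17 above NaCl.

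PEG3 and PEG10 had the opposite order, with NaCl on top and untreated cells at the bottom. PEG3, a paternally expressed zinc finger protein, read 6.55, 6.30, 6.63, 6.49 and 6.59 with NaCl, 5.94, 5.77, 5.87, 6.04 and 5.82 in untreated cells and 6.13, 6.05, 6.17, 6.00 and 6.30 with L-lactate. It rose with NaCl by 0.62 (SE 0.07, 1.54-fold, limma adjusted p = 2.9e-05), and all NaCl arrays were above all untreated ones. With L-lactate PEG3 was 0.24 above untreated cells (limma adjusted p = 0.02) with overlapping arrays, and 0.38 below NaCl. A further cluster, which carries PEG3 together with its antisense gene APEG3 and so names neither, read 4.65 with L-lactate, 4.79 with NaCl and 4.68 in untreated cells and was not called.

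PEG10 comes from a retrotransposon and encodes Gag-like and Pol-like proteins. It had narrow groups, with means of 9.68 ± 0.03 with NaCl, 9.53 ± 0.05 with L-lactate and 9.32 ± 0.04 in untreated cells (SD, n = 5 each). The ranges of 9.63 to 9.71, 9.47 to 9.57 and 9.27 to 9.38 did not overlap. The difference from untreated cells was 0.36 with NaCl (limma adjusted p = 3.3e-06) and 0.20 with L-lactate (limma adjusted p = 0.0002), so PEG10 was set apart in every comparison but in none by 1.5-fold.

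GRB10, an adaptor protein that restrains signaling of the insulin and IGF1 receptors, descended from untreated cells over NaCl to L-lactate. Its arrays ranged from 6.15 to 6.27, from 5.97 to 6.08 and from 5.63 to 5.85, without overlap. It was 0.43 lower with L-lactate than in untreated cells (SE 0.04, 1.35-fold lower, limma adjusted p = 1.9e-06) and 0.20 lower with NaCl (limma adjusted p = 0.0063). Both differences stayed below the fold threshold.

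PLAGL1, a zinc finger transcription factor that binds regulatory regions of other imprinted genes in mouse, had the same order with small steps. Its means were 7.28 ± 0.13 in untreated cells, 7.15 ± 0.07 with NaCl and 7.01 ± 0.11 with L-lactate (SD, n = 5 each). The difference between L-lactate and untreated cells was -0.27 (limma adjusted p = 0.0052) and that between NaCl and untreated cells -0.13 (limma adjusted p = 0.24, 95% interval -0.27 to 0.01).

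DLK1, a transmembrane protein that inhibits differentiation of several cell types, was the member in which no difference beyond the spread between arrays was seen. Its means were 5.03 ± 0.24 with L-lactate, 5.08 ± 0.19 with NaCl and 5.14 ± 0.11 in untreated cells (SD, n = 5 each). The differences from untreated cells were -0.11 with L-lactate (limma adjusted p = 0.52, 95% interval -0.35 to 0.12) and -0.06 with NaCl (limma adjusted p = 0.82, 95% interval -0.29 to 0.18). L-lactate replicate 5 read 4.59, the other 4 arrays of its group 5.11 to 5.17.

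**Figure D2:**
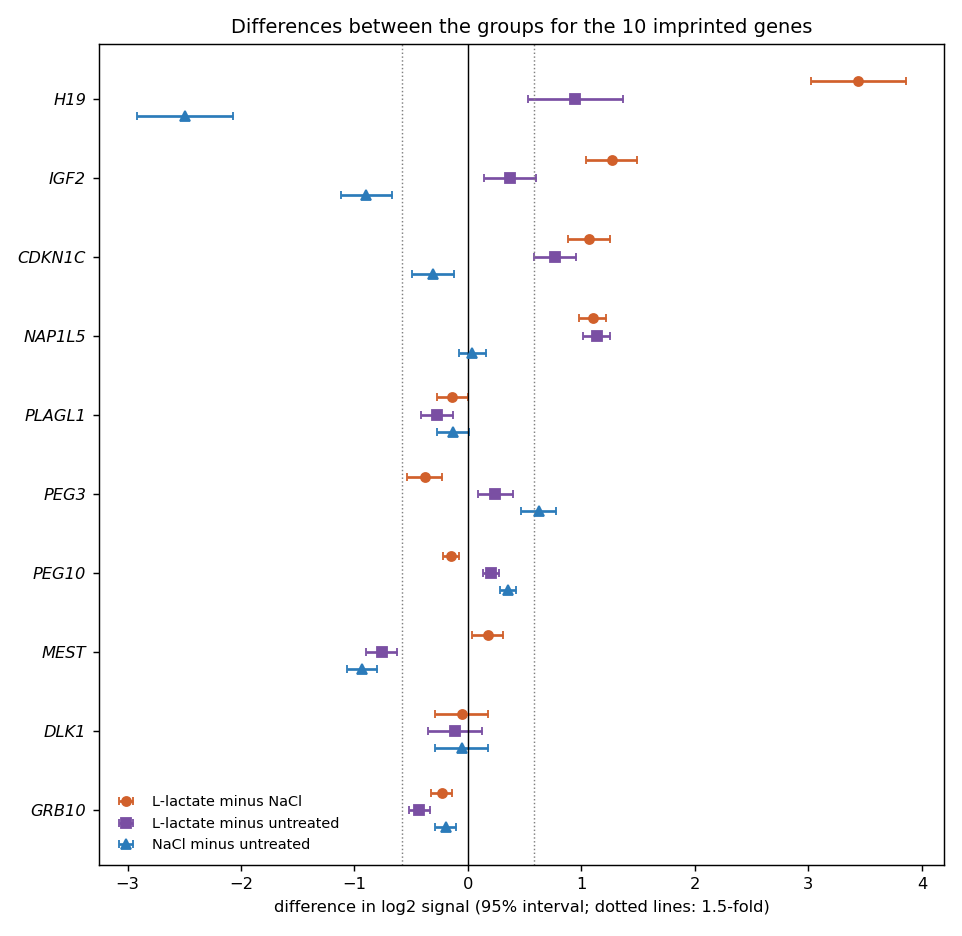
Differences in log2 signal (horizontal axis) of the 10 imprinted genes for the 3 comparisons, as the estimate of limma with its 95% interval, and with dotted lines at a 1.5-fold change. H19 reaches from -2.49 (NaCl minus untreated) to 3.44 (L-lactate minus NaCl), MEST is left of the dotted line in both comparisons with untreated cells, and the intervals of DLK1 include 0 throughout. The differences between L-lactate and NaCl are a description, since H19 was chosen from them.

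A gene was called where its adjusted p was under 0.05 and it differed by more than 1.5-fold, and 4 of the 10 genes were called in each comparison. Between NaCl and untreated cells 1 rose (PEG3) and 3 fell (H19, IGF2 and MEST), where 1.15% of all 26773 clusters were called (0.403% higher and 0.743% lower). Between L-lactate and untreated cells 3 rose (CDKN1C, H19 and NAP1L5) and 1 fell (MEST), where 3.27% of all clusters were called (1.93% higher and 1.33% lower). Between L-lactate and NaCl the count was 4 higher and 0 lower beside 1.89% of all clusters (1.28% higher and 0.601% lower), from which nothing can be read as this comparison chose the genes. At any fold, 7 of the 10 had an adjusted p under 0.05 between NaCl and untreated cells (11.9% of all clusters), 9 between L-lactate and untreated cells (27.1%) and 7 between L-lactate and NaCl (22.2%, again a description). The arrays of 7 members did not overlap between NaCl and untreated cells (11% of all clusters), those of 7 between L-lactate and untreated cells (22.4%) and those of 6 between L-lactate and NaCl (19.1%, a description). The median absolute log2 difference of the 10 genes was 0.331 for NaCl and 0.4 for L-lactate against untreated cells, beside 0.0748 and 0.102 over all clusters. The difference between L-lactate and NaCl is made up of the differences of both from untreated cells. Choosing H19, IGF2, CDKN1C and NAP1L5 by it therefore favoured calls against untreated cells as well. All these counts and shares are a description and no result about imprinted genes as a group.

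By their calls in the 3 comparisons the members fell into several patterns. These include the comparison that chose the genes, so the shares of clusters with each pattern are a description only. That of H19, higher with L-lactate than with both other groups and lower with NaCl than in untreated cells, was shared by 12 clusters (0.0448% of all). These were, named after their values had been seen, AHSG, HAS2, PTX3, NDUFA4L2, LTC4S, RANBP3L, ANO3, KRT8, INA, GPR50 and 1 cluster without a symbol beside H19. HAS2 encodes the enzyme that makes the hyaluronan of the cumulus matrix and PTX3 a protein of that matrix. The pattern of IGF2, which lacks the call between L-lactate and untreated cells, was found in 35 clusters (0.131%), that of CDKN1C and NAP1L5 in 199 (0.743%), that of PEG3 in 34 (0.127%) and that of MEST in 98 (0.366%). PLAGL1, PEG10, DLK1 and GRB10 belonged to the 25658 clusters (95.8%) without a call.

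The profiles of H19 and IGF2 over the 15 arrays resembled each other. Both were known to be higher with L-lactate than with NaCl when the set was chosen, which favours such a likeness. By Pearson r, used as a measure of likeness over 15 arrays that include the group differences, the clusters most like H19 were those of PKIB (0.988), PTX3 (0.987), IBSP (0.983), TNFSF18 (0.982) and IGF2 (0.981). For IGF2 they were H19 (0.981), IBSP (0.975), PTX3 (0.970), TMEM37 (0.969) and PKIB (0.967). All of these had the order L-lactate, untreated, NaCl, which 13.3% of all clusters had. PTX3, an inducible pentraxin, had group means of 7.81, 6.95 and 5.50 in that order, and PKIB, an inhibitor of protein kinase A, 7.26, 7.09 and 6.66. IBSP, the bone sialoprotein, had 8.44, 7.96 and 6.86.

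H19 and IGF2 also deviated together within the groups. After subtraction of the group means, r between them was 0.741 over 15 arrays, a description over arrays normalized together, and 66 of the clusters with 1 symbol had a higher value with H19. For H19 and PEG3 it was -0.784, and 18445 of the 18457 clusters with 1 symbol had a higher value with H19. For IGF2 and GRB10 it was 0.801, and 19 had a higher value with IGF2. Both pairs are among the extremes of all pairs of members. Other pairs were weak, such as H19 and CDKN1C (0.194) or IGF2 and NAP1L5 (-0.00568). The values of H19 with IGF2, H19 with PEG3 and IGF2 with GRB10 rested in part on 2 arrays. Without NaCl replicate 2 and L-lactate replicate 5 the values were 0.553, -0.60 and 0.552 over 13 arrays. In NaCl replicate 2, H19 was 0.866 and IGF2 0.276 above the mean of the NaCl group and PEG3 deviated by -0.21. In L-lactate replicate 5, H19 deviated by -0.41 and IGF2 by -0.39 from the mean of the L-lactate group.

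Stromal markers also deviated in single arrays. In NaCl replicate 2 all 7 stromal markers were above the mean of their group (on average by 0.301 on the log2 scale, THY1 by 0.82, COL1A1 by 0.47 and DCN by 0.37), as were 4 of 4 theca markers (by 0.157), whereas 3 of 9 granulosa markers were (mean deviation -0.0143). In untreated replicate 2, where H19 was highest in its group (by 0.214 above the mean), 7 of 7 stromal and 4 of 4 theca markers were above the group mean as well. In NaCl replicate 1 and L-lactate replicate 1, 6 of 7 stromal markers were above the mean of their group, whereas H19 deviated by -0.089 and -0.109. In L-lactate replicate 5, 1 of 7 stromal markers was above the group mean (mean deviation -0.0625). Their part in the spread of H19 and IGF2 was not tested. Against untreated cells, 2 of the 7 stromal markers rose with L-lactate (COL1A1 and PDGFRA) and 2 fell (COL1A2 and COL3A1), and 0 rose and 2 fell with NaCl (COL1A2 and COL3A1), a share of 57.1% and 28.6% beside the 3.27% and 1.15% of all clusters. Between L-lactate and NaCl, 2 were higher with L-lactate (COL1A1 and PDGFRA) and 1 lower (COL1A2), a share of 42.9% beside 1.89% of all clusters. COL1A1, DCN and THY1 had group means in the order of H19, an order found in 13.3% of all clusters. With L-lactate, in untreated cells and with NaCl, COL1A1 had 7.82, 7.15 and 6.64, DCN 9.33, 9.20 and 8.86 and THY1 5.64, 5.41 and 5.39. PDGFRA, COL1A2, COL3A1 and LUM had other orders. Of the 9 granulosa markers, 6 were lower and 1 higher with L-lactate than in untreated cells at an adjusted p under 0.05 (median of the 9 differences -0.272). With NaCl, 6 were higher and 0 lower (median 0.206). Of all clusters, 27.1% and 11.9% had such an adjusted p in these comparisons. CYP19A1 with L-lactate also passed 1.5-fold, a share of 11.1% beside 3.27% of all clusters. Between L-lactate and NaCl, 8 of the 9 were lower with L-lactate and 0 higher at an adjusted p under 0.05 (median -0.41), beside 22.2% of all clusters in either direction. Of these, AMH, AMHR2 and CYP19A1 were called, a share of 33.3% beside 1.89% of all clusters. Of the 4 theca markers INSL3 fell in both comparisons with untreated cells, a share of 25% beside 3.27% and 1.15% of all clusters. L-lactate replicate 5 also had the largest mean distance over all clusters to its own group among the L-lactate arrays, 36.9 against 33.3 to 34.5.

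**Figure D3:**
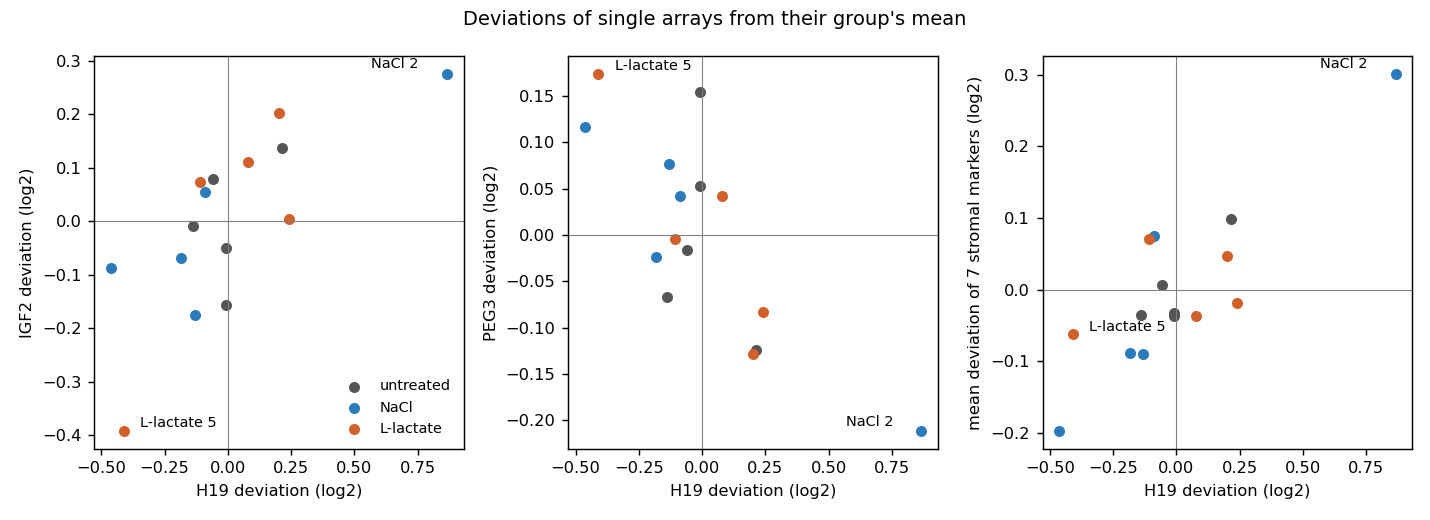
Deviation of each of the 15 arrays from the mean of its group, with H19 on the horizontal axis and IGF2, PEG3 or the mean of 7 stromal markers on the vertical axes (log2 units). NaCl replicate 2, with H19 0.866 above its group, is at the edge of all 3 panels, and L-lactate replicate 5 is lowest for IGF2.

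None of the measured genes beside H19 and IGF2 was called. In the annotated order ASCL2, TH, INS, IGF2, MIR483, H19, MRPL23, TNNT3 and PRR33, each gene was read by its cluster of highest mean signal. The log2 differences of all but IGF2 and H19 lay in all 3 comparisons between -0.18 and 0.16. Mean signals of TNNT3 (3.65) and ASCL2 (3.74) were below the median of all values, 4.553, and those of TH (4.65) and INS (5.13) not far above it. Whether these genes are expressed here is not known, and a silent gene cannot show a difference. INS (insulin) overlapped between NaCl and untreated cells (-0.14, limma adjusted p = 0.26), and MRPL23, a mitochondrial ribosomal protein next to H19, likewise (0.12, limma adjusted p = 0.38). Over the alternative fits of all arrays, which include the mean of a gene's clusters, MRPL23 ranged from 0 to 0.135 there. For L-lactate against untreated cells it ranged from -0.151 to 0.003. MIR483, a microRNA gene inside IGF2, had a cluster of its own with means of 6.34, 6.31 and 6.35 with L-lactate, with NaCl and in untreated cells, a narrower range than its host (differences of -0.01 with L-lactate and -0.04 with NaCl from untreated cells, limma adjusted p = 0.91 and 0.74). No cluster was found for MIR675, the microRNA made from H19. MIR335, inside MEST, read 2.12, 2.20 and 2.24 in the same order and was not called, while its host was highest in untreated cells. Whether these small probe sets can follow a mature microRNA was not tested.

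**Figure D4:**
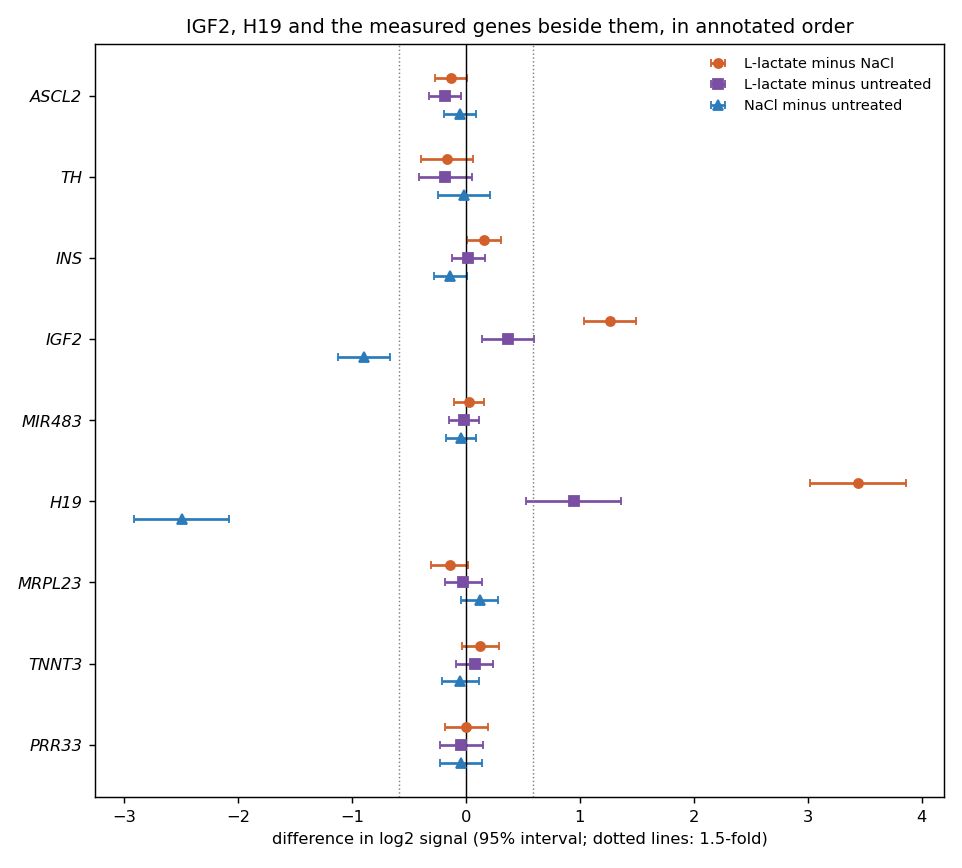
Differences in log2 signal (horizontal axis, 95% interval of limma, dotted lines at 1.5-fold) for IGF2, H19 and the measured genes next to them, listed in their annotated order and not to scale along the chromosome. IGF2 and H19 leave the range of -0.18 to 0.16 in which the other genes lie. Some of these, such as TNNT3 and ASCL2, have low signals, and whether they are expressed is not known.

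Near CDKN1C, the imprinted genes SLC22A18, PHLDA2 and KCNQ1 were not called. Their mean signals of 4.66, 4.21 and 4.56 were near or below the median of all values, 4.553, and whether they are expressed here is not known. PHLDA2, a placental growth repressor, had a difference of -0.24 between L-lactate and untreated cells (limma adjusted p = 0.075) and of -0.18 between NaCl and untreated cells (limma adjusted p = 0.28). Next to NAP1L5, HERC3 lay 0.56 above untreated cells with L-lactate (limma adjusted p = 6.8e-06) and 0.40 with NaCl (limma adjusted p = 0.00064), short of 1.5-fold, and GPRIN3, with 3 annotated genes between, rose with L-lactate by 1.72 (limma adjusted p = 1.8e-08). SGCE, which shares a promoter region with PEG10 in mouse and human, had differences of -0.01 (L-lactate) and -0.02 (NaCl) against untreated cells. PPP1R9A on the other side of PEG10 had 0.27 and 0.49 and so the same order of groups as PEG10, which 13% of all clusters had. MEG3, the maternally expressed noncoding RNA beside DLK1, had -0.12 and -0.03 (limma adjusted p = 0.25 and 0.85). Its mean signal of 4.86 was not far above that median.

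DDC, an aromatic amino acid decarboxylase near GRB10, fell with L-lactate by 0.71 (limma adjusted p = 1.1e-05) and with NaCl by 0.78 (limma adjusted p = 1.6e-05). Its group means were 3.05, 2.99 and 3.77 with L-lactate, with NaCl and in untreated cells. Of all 54 measured neighbours of the 10 genes, 1 rose and 3 fell with L-lactate, and 0 rose and 2 fell with NaCl against untreated cells, a share of 7.41% and 3.7% beside the 3.27% and 1.15% of all clusters. The other genes that fell were COL1A2, a collagen gene near PEG10, in both comparisons and WARS1, a tRNA synthetase near DLK1, with L-lactate.

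Among further imprinted genes, those called were lower than in untreated cells. Of 55 listed genes imprinted in mouse, human or cattle, 42 had a cluster, and against untreated cells 3 fell with L-lactate and 2 with NaCl, while none rose, a share of 7.14% and 4.76% beside 3.27% and 1.15% of all clusters. Beside DDC these were SLC22A3 and TFPI2. SLC22A3, an organic cation transporter, fell with L-lactate by 1.31 (limma adjusted p = 1.9e-09), lay 0.49 lower with NaCl (limma adjusted p = 0.00013, short of 1.5-fold) and was the only one called between L-lactate and NaCl (-0.82, limma adjusted p = 3.2e-07). TFPI2, an inhibitor of serine proteases, fell by 0.99 (limma adjusted p = 0.012) and 1.22 (limma adjusted p = 0.0069). Its NaCl arrays overlapped the untreated ones, as NaCl replicate 2 was 1.13 above its group mean. The median log2 difference of the 42 genes was -0.0183 with L-lactate and -0.0264 with NaCl, beside -0.0151 and 0.00162 over all clusters.

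Receptors, binding proteins and other genes that act with IGF2 were compared in the same way. IGF1R, which transmits the signal, had means of 9.29, 9.44 and 9.28 with L-lactate, with NaCl and in untreated cells, and IGF2R, the imprinted receptor that clears IGF2, 7.35, 7.56 and 7.50. Neither was called. At any fold, IGF2R was lower with L-lactate than with NaCl (-0.21, limma adjusted p = 0.00053) and than in untreated cells (-0.147, limma adjusted p = 0.0064). IGF1R differed by -0.148 between L-lactate and NaCl and by 0.151 between NaCl and untreated cells. Its adjusted p over all alternatives was 0.0012 to 0.027 and 0.0021 to 0.041. IGF1 read 3.15, 3.14 and 3.11, below the median of all values, 4.553, and whether it is expressed here is not known. Of the 22 genes of the IGF axis, all measured, 2 were higher (PAPPA and STC1) and 0 lower with L-lactate than with NaCl, 2 rose and 2 fell with L-lactate and 0 rose and 1 fell with NaCl against untreated cells. These are shares of 9.09%, 18.2% and 4.55%, beside 1.89%, 3.27% and 1.15% of all clusters. PAPPA, the protease that frees IGF from its binding proteins, rose with L-lactate by 1.14 (limma adjusted p = 1.7e-08) and IRS1, a substrate of the receptor kinase, by 0.61 (limma adjusted p = 9.5e-06). IGFBP6, a binding protein with preference for IGF2, fell by 0.90 (limma adjusted p = 2.6e-07) with L-lactate and by 0.59 with NaCl (limma adjusted p = 7.2e-05), the latter at the edge of the fold threshold. Of the other IGFBP genes none was called in any comparison. IGFBP3 had the order of IGF2, as did 13.3% of all clusters. Its means were 5.64 with L-lactate, 5.43 in untreated cells and 5.12 with NaCl (limma adjusted p = 0.32 and 0.20 for L-lactate and NaCl against untreated cells). Against untreated cells, IGFBP4 was 0.27 lower with L-lactate (limma adjusted p = 0.00085) and 0.29 higher with NaCl (limma adjusted p = 0.0015), IGFBP2 was 0.24 higher with NaCl (limma adjusted p = 0.023), and IGFBP5 was higher with both, by 0.24 and 0.17 (limma adjusted p = 2.7e-05 and 0.0017). STC2, an inhibitor of PAPPA, fell with L-lactate by 0.82 (limma adjusted p = 4.1e-06). Its relative STC1 had the order of H19 and IGF2, with means of 10.81, 9.77 and 10.31, and was called between L-lactate and NaCl (1.04, limma adjusted p = 3.3e-11) and in neither comparison with untreated cells, where it differed by 0.50 and -0.54.

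Of 29 genes of factors that keep imprints limma called 0 in each comparison, as did an ordinary contrast without moderation, with 10 at an unadjusted p under 0.05 for L-lactate against NaCl, 11 for L-lactate against untreated cells and 9 for NaCl against untreated cells. At any fold, 6, 7 and 4 of the 29 had an adjusted p under 0.05, where 22.2%, 27.1% and 11.9% of all clusters did, and with 1.89%, 3.27% and 1.15% of all clusters called, a count of 0 in a list of this size is no result about these factors. CTCF differed by -0.07 with L-lactate and 0.09 with NaCl from untreated cells (limma adjusted p = 0.26 and 0.20), and DNMT1, the methyltransferase that copies methylation at replication, by 0.16 and 0.10 (limma adjusted p = 0.0085 and 0.18). Between L-lactate and NaCl, CTCF was lower with L-lactate (-0.162, adjusted p over all alternatives 0.0022 to 0.035), short of 1.5-fold. DNMT1 differed there by 0.067 (adjusted p over all alternatives 0.13 to 0.52). H19 binds let-7 microRNAs in human and mouse cells. Of 14 measured genes of the let-7 pathway and its targets limma and the ordinary contrast also called 0, with 6, 5 and 2 at an unadjusted p under 0.05, which is likewise no result about the list. CDKN1A and CDKN1B, the relatives of CDKN1C, were not called either, with differences of 0.03 and -0.12 for L-lactate and -0.14 and 0.14 for NaCl against untreated cells. Between L-lactate and NaCl, CDKN1A was 0.18 higher (limma adjusted p = 0.011) and CDKN1B 0.26 lower (limma adjusted p = 0.00034) with L-lactate, short of 1.5-fold and without overlap of the arrays.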

How the data were processed

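Values were the authors' log2 signals of 15 Bovine Gene 1.0 ST arrays, which the authors obtained by RMA, with background reduction and quantile normalization, in the Affymetrix Expression Console (1.4.1.46). They entered the fits unchanged. As no scan dates or detection calls were used here, batches of arrays and background could not be tested. Precision is set by the number of arrays, and as the sources do not say whether replicates of a group are separate pools of cells, p-values measure the spread between these samples, which may be technical. Array medians lay between 4.52 and 4.60.

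All 26773 clusters were fitted together with limma 3.58.1 in R 4.3.3, with a coefficient for each of 3 groups and no block, Benjamini-Hochberg adjustment over all clusters, and calls where the adjusted p was under 0.05 and the groups differed by more than 1.5-fold. Symbols come from the platform annotation (18457 clusters with 1 symbol, 688 with several, 7628 with none). Where a gene has several clusters, the one with the highest mean signal was used. The RefSeq gene list (ARS-UCD2.0), which holds 17996 of the 18166 clusters' single gene IDs, gave names and neighbours only. The build of the array is not given in the sources used here, and no coordinates or sequences are shown. A planned search for promoter motifs was not run.

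The members and all lists (other imprinted genes, IGF axis, imprint maintenance, let-7 pathway and targets, CIP/KIP relatives, cell type markers) were chosen with earlier results of these data known, from general knowledge, and share some genes, such as IGF2R. Named were all members, up to 5 called genes of each list with the largest difference, IGF1, IGF1R, IGF2R, MEG3, CTCF and DNMT1, the 5 clusters most like H19 and IGF2, 3 measured neighbours on either side, and hosted microRNAs. IGFBP2, IGFBP3, IGFBP4, IGFBP5, HERC3, PPP1R9A, PHLDA2, GPRIN3, SGCE, WARS1 and the clusters with the calls of H19 were named after their values were seen. Tested on simulated data with 50 clusters per fold size, the procedure called for NaCl against untreated cells 0 at 1.3-fold, 49 at 1.8-fold, 49 at 2-fold and 50 at 3-fold, over 26773 clusters. Further tools were the R package data.table (version 1.17.8) and, for the figures, matplotlib 3.10.9 with numpy 2.4.6 and pandas 2.3.3 in Python 3.11.15. The alternatives were a fit of 10 arrays, an ordinary contrast without moderation, the replicate block, a filter on low signal, other normalizations, array weights, another variance prior, other fold thresholds, the mean of a gene's clusters, and leaving out each array.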

Additional observations from a re-analysis of the deposited data

Results flagged for a closer look

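In 13 of 111 groups of 5 arrays tested, 4 of them among the 30 groups of the imprinted genes, the highest or lowest array stood apart from the other 4 by Dixon's criterion. Chance flags about 1 in 20 groups. Among the imprinted genes, H19 read 5.21 in NaCl replicate 2 (others 3.88 to 4.26), CDKN1C 4.51 in NaCl replicate 5 (others 4.84 to 4.91), DLK1 4.59 in L-lactate replicate 5 (others 5.11 to 5.17) and GRB10 5.63 in the same array (others 5.80 to 5.85).

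L-lactate replicate 5 stood apart in STC2 (4.84, others 5.26 to 5.35) and TH (4.14, others 4.60 to 4.67) on the low side and in IGF2R on the high side (7.46, others 7.31 to 7.33). NaCl replicate 2 stood apart in IGFBP6 (5.53, others 5.25 to 5.33) and STC2 (5.43, others 5.62 to 5.68). TMEM37 was low in NaCl replicate 5 (8.73, others 8.98 to 9.04) and in untreated replicate 5 (9.33, others 9.46 to 9.50), where TH was high (4.90, others 4.64 to 4.71). DDC was high in untreated replicate 1 (4.04, others 3.64 to 3.74).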

How the results depend on the processing

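The calls of the 10 imprinted genes at the 1.5-fold threshold were the same in every refit and with each array left out, and no called value changed its direction. With single arrays left out, H19 ranged from -2.71 to -2.38 for NaCl and from 0.89 to 1.05 for L-lactate against untreated cells (adjusted p over all alternatives 4.2e-08 to 3.7e-05 and 2.5e-05 to 0.0059). Short of the fold threshold, the adjusted p of CDKN1C with NaCl ranged from 0.012 to 0.078 and that of PEG3 with L-lactate from 0.0082 to 0.057. The IGF axis had 0 to 1 genes called between NaCl and untreated cells, as IGFBP6 was lost in 7 of the leave-outs, and 0 with each array centred on its median. Without low-signal clusters, 1 further imprinted gene was called there. DDC, IGF1 and other named genes below the filter have no value under it, and all 10 imprinted genes passed it. IRS1 fell short of 1.5-fold with L-lactate without L-lactate replicate 4 (0.565) and without untreated replicate 3 (0.585).

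Counts depended on the fold threshold. Without one, 2870 clusters were higher and 3071 lower between L-lactate and NaCl, 3574 and 3680 between L-lactate and untreated cells, and 1640 and 1555 between NaCl and untreated cells. Of the imprinted genes, 3 were then lower in the first, 6 higher and 3 lower in the second, and 2 higher and 5 lower in the third comparison. Of the other lists, in the same order of comparisons, 11, 12 and 9 further imprinted genes, 11, 9 and 8 of the IGF axis, 6, 7 and 4 of imprint maintenance, 5, 4 and 2 of the let-7 pathway, and for the CIP/KIP relatives 2 in the first and 1 in the third were called. Above a 2-fold change, 92 clusters were higher and 27 lower, 117 and 84, and 18 and 52. Of the imprinted genes, 1 was then higher and 0 lower with L-lactate and 0 higher and 1 lower with NaCl against untreated cells, with 0, 1 and 1 further imprinted genes and 1, 1 and 0 genes of the IGF axis.

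Arrays with the same replicate number showed no broad likeness. With group means removed, the 15 correlations between arrays of 1 number lay between -0.0653 and 0.0655, with 0 above 0.1. Such values can miss a likeness limited to a few genes. Whether cultures of 1 number share a source of cells is therefore not known. With the replicate block, the counts were 345 and 162, 515 and 358, and 104 and 198 clusters, and no call of the imprinted genes changed. Background and batches of arrays could not be tested.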
